A study of Mus musculus with 18 samples.

Results

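General pluripotency factors of mouse embryonic stem cells (mESCs), namely the genes Pou5f1, Sox2, Sall4, Utf1 and Zfp281, were followed over 3 days of differentiation and in 3 genotypes of sorted cells. These are 5 of the 24369 rows of the deposited table of expression values, chosen by gene symbol, and all 5 passed the filter on low counts. They did not all last: by day 3 Sox2 RNA had fallen 8.63-fold, Sall4 1.84-fold and Pou5f1 1.58-fold against day 0, Zfp281 was 1.33-fold lower, and Utf1 was 1.20-fold higher. The call of Utf1 on day 3 was lost without 1 library of that day. In cells lacking Tsc2, Zfp281 was 1.49-fold higher than in wild-type cells and Utf1 and Sall4 were lower, but genes near Zfp281 on chromosome 1 were higher as a whole and both of the lower calls were lost without 1 library of either genotype. In cells lacking Nprl2 none of the 5 passed the test.

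Pou5f1 (Oct4), a POU-domain transcription factor, and Sox2, an HMG-box transcription factor, bind DNA side by side at composite sites and keep the pluripotent state, in naive cells as well as in the later epiblast. Sall4 and Zfp281 are zinc finger transcription factors, both known to associate with the co-repressor complex NuRD, and Zfp281 is also known for its role in the exit from the naive state. Utf1 is a chromatin-bound protein of undifferentiated cells whose gene is a known target of Oct4 and Sox2. Naive factors such as Esrrb and Klf4 are lost as cells leave the naive state, formative factors such as Otx2 and Fgf5 are gained, and general factors are those found on both sides of that step.

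The time course held wild-type Rex1GFPd2-Cas9 mESCs, an E14 line with a destabilized GFP at Rex1 (Zfp42) and Cas9 at Rosa26, before differentiation (day 0) and on days 1, 2 and 3, with 3 libraries a day. The second set held GFP+ cells sorted from undifferentiated wild-type (Rex1GFPd2-Cas9), Nprl2-/- and Tsc2-/- cultures of that line, with 2 libraries a genotype. Nprl2 is a subunit of Gator1 and Tsc2 of the Tsc complex, both negative regulators of mTORC1, and each KO was made by deleting a critical exon with 2 guide RNAs. All groups carry the reporter and Cas9, and differentiation was without LIF and inhibitors. The paper's methods keep the line on feeder cells with serum and LIF, or on gelatin with 2 inhibitors and LIF where indicated. Which of these cultures the time-course cells came from is not stated there. The sources used here do not give the age of the cultures, whether time-course cells were sorted, or whether libraries of a group came from separate cultures or clones, so a p-value measures only the spread between these libraries, which may be technical. The study asked how general pluripotency genes behave beside naive and formative ones when mTORC1 is released from either regulator.

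The bases before the start sites are shown because genes that moved in opposite directions, such as Sox2 and Utf1, can then be compared as sequence. RefSeq promoters of GRCm38.p6 matched 4 of the 5 genes. The 150 bases before each start are printed 5′ to 3′, all on the plus strand, with matches to 5 short motifs in capitals.
Pou5f1, chr17:35505882-35506031: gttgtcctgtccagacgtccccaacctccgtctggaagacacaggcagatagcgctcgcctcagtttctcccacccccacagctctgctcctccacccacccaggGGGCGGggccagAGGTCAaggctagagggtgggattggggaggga
Sox2, chr3:34649845-34649994: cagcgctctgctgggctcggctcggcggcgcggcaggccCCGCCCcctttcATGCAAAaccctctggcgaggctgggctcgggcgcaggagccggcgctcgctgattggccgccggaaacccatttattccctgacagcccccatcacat
Utf1, chr7:139943706-139943855: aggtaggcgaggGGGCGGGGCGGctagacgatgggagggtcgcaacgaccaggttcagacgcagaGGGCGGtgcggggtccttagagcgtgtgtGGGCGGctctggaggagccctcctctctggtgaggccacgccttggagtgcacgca
Zfp281, chr1:136624751-136624900: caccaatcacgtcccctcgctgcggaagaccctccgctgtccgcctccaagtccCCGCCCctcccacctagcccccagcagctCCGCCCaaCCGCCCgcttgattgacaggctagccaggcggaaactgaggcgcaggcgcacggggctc
The motifs were the octamer core ATGCAAA, the SOX sites ACAAAG and ACAATG, the GC box GGGCGG and the nuclear receptor half-site AGGTCA, each on both strands. In the 250 bases before the start, the octamer core was found in Sox2 alone of these 4, with its first base at -99, and 4.15% of 32536 promoter windows of that length hold it. Pou5f1 had a GC box at -45 and a half-site at -33, whereas 33% and 14% of all windows hold these motifs. Utf1 and Zfp281 each had 4 GC boxes and no other match, 2 of those of Utf1 overlapping by 1 base. Further from its start, Sox2 had a half-site at -244 and a GC box at -223, beside the printed GC box at -111. It also had a SOX site ACAAAG at -206, a motif of 16.5% of windows, and ACAATG, found in 10.5%, was met only at -158 before a second start of Pou5f1. A match is a description of letters and says nothing of binding.

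In the annotation of GRCm38.p6, the genes lie on 5 chromosomes: Zfp281 (gene ID 226442) at chr1:136624901-136630391, Sall4 (99377) at chr2:168748332-168767201, Sox2 (20674) at chr3:34649995-34652461, Utf1 (22286) at chr7:139943856-139945112 and Pou5f1 (18999) at chr17:35506032-35510777. Time-course libraries held between 12503005 and 15305054 estimated counts and GFP+ libraries between 8610357 and 13780861. In the KO libraries the targeted genes were lowered but still counted, Nprl2 at 5.96 and 6.50 CPM (counts scaled to a library's total after TMM normalization) against 11.7 and 12.6 CPM in wild-type cells (edgeR adjusted p = 0.00888), and Tsc2 at 63.7 and 67.3 CPM against 152.3 and 155.5 CPM (edgeR adjusted p = 9.74e-07). Without TMM, the summed level of 8 pluripotency markers, 2 of them members, was between 5842 and 6127 CPM on day 0 and between 1692 and 1964 CPM on day 3. The summed level of 7 neural progenitor markers was between 20.7 and 29.7 CPM on day 0 and between 305.5 and 376.9 CPM on day 3, mostly Nes. That of 7 trophectoderm markers was between 23.8 and 34.2 CPM on day 0 and between 293.8 and 521.6 CPM on day 3. The highest of these 7 on day 3 was Krt8, at a mean of 219.4 CPM. Cdx2 and Elf5 were at or under 3 counts in every day 3 library. The sum of 10 feeder fibroblast markers was at most 74.3 CPM in the time course and between 119.4 and 439.1 CPM in the GFP+ libraries, where Lum was at or under 3 counts. Sums of 7 primitive endoderm and 6 primitive streak markers stayed at or under 25.3 and 15.3 CPM in every library. In bulk libraries fewer cells of a type and less RNA per cell cannot be told apart, and the part of other cell types in the results below was not tested.

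Per transcript length, Pou5f1 was the highest of the 5 genes in all 18 libraries. Its mean level on day 0 was 1845 ± 74.4 TPM (counts per effective transcript length, scaled to the same total in every library; SD, n = 3), which placed it at rank 86 of all genes, and on day 3 it was 1233 ± 134 TPM, at rank 116. Sox2 at 456.1 ± 33.2 TPM and Utf1 at 410.7 ± 31.5 TPM were neighbours on day 0 whose libraries overlapped, Utf1 being above Sox2 in 1 of the 3 libraries. Sall4 was at 131.6 ± 8.39 TPM and Zfp281 at 55.7 ± 7.01 TPM. From day 1 Utf1 was second in every time-course library. On days 2 and 3 Sox2 dropped below Sall4 to the fourth place in all 6 libraries, with 60.5 ± 6.39 against 73.1 ± 3.09 TPM on day 2 and 56.1 ± 2.45 against 76.4 ± 4.93 TPM on day 3. Sox2 thus went from rank 295 on day 0 to rank 2941 on day 3, and Utf1 from rank 337 to 152 on day 1 and 246 on day 3. The ratio of Pou5f1 to Sox2 in TPM lay between 3.58 and 4.37 on day 0, between 9.97 and 11.5 on day 1, between 21.7 and 26.6 on day 2 and between 20.1 and 25.1 on day 3. The ranges of days 0, 1 and 2 did not overlap, and those of days 2 and 3 did.

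Pou5f1 showed no called difference on day 1 and was lower on days 2 and 3. On day 0 the 3 libraries read 1190, 1141 and 1261 CPM and on day 1 they read 1248, 1285 and 1236 CPM. Both days overlapped, and the log2 fold change of 0.07 (95% interval -0.08 to 0.22) was not called (edgeR adjusted p = 0.426). On day 2 the libraries read 955.3, 929.4 and 836.4 CPM and on day 3 they read 674.5, 856.3 and 737 CPM. All 6 lay below every library of days 0 and 1, while 1 library of day 3 lay above the lowest of day 2. Against day 0, Pou5f1 was 1.32-fold lower on day 2 (log2 fold change -0.40, SE 0.07, edgeR adjusted p = 8.88e-05) and 1.58-fold lower on day 3 (log2 fold change -0.66, SE 0.07, edgeR adjusted p = 1.71e-07). The step from day 1 to day 2 was -0.47 (SE 0.07, edgeR adjusted p = 2.04e-05). The further fall from day 2 to day 3 of 0.26 on the log2 scale (edgeR adjusted p = 0.0108) was lost without library 1 of day 2 (adjusted p = 0.0588) or without library 1 of day 3 (adjusted p = 0.0806).

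Sox2, the partner of Oct4 in DNA binding, fell further than any other member in every comparison of days 1, 2 and 3 with day 0. Its libraries read 558.3, 638.2 and 572.8 CPM on day 0 and 226.8, 220.3 and 245.9 CPM on day 1. They read 71.2, 85.6 and 71.0 CPM on day 2 and 67.6, 67.4 and 70.1 CPM on day 3. The first 3 days did not overlap with one another, and all libraries of day 3 lay below those of day 2. Sox2 was 2.55-fold lower on day 1 (log2 fold change -1.35, SE 0.07, edgeR adjusted p = 6.97e-12), 7.76-fold lower on day 2 (-2.96, SE 0.08, edgeR adjusted p = 1.13e-16) and 8.63-fold lower on day 3 (-3.11, SE 0.08, edgeR adjusted p = 5.29e-17). Of all genes tested, 92.9% had a smaller absolute log2 fold change on day 3 against day 0. From day 1 to day 2 the log2 fold change was -1.60 (SE 0.08, edgeR adjusted p = 2.75e-12), and from day 2 to day 3 it was -0.15 (95% interval -0.31 to 0.01, edgeR adjusted p = 0.143), which was not called.

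Sall4 followed Sox2 in shape at a smaller size. Its libraries read 362.8, 342.5 and 393.9 CPM on day 0 and 271.8, 280.8 and 274.9 CPM on day 1. On day 2 they read 196.4, 207.3 and 188.7 CPM and on day 3 they read 192.5, 198.2 and 208.3 CPM. Days 0, 1 and 2 were apart from one another, and days 2 and 3 overlapped. The log2 fold change against day 0 was -0.41 on day 1 (SE 0.06, edgeR adjusted p = 8.08e-06), -0.89 on day 2 (SE 0.06, edgeR adjusted p = 1.35e-10) and -0.88 on day 3 (SE 0.06, edgeR adjusted p = 1.38e-10). Sall4 fell by 0.48 on the log2 scale between days 1 and 2 (edgeR adjusted p = 1.36e-06), and from day 2 to day 3 its log2 fold change was 0.02 (95% interval -0.11 to 0.14, edgeR adjusted p = 0.872), which was not called.

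Zfp281 peaked on day 1. The libraries read 146, 152.1 and 185.8 CPM on day 0 and 258.5, 271.8 and 268.2 CPM on day 1, every one above day 0. They then read 143.5, 155.4 and 125 CPM on day 2, where 2 lay below every library of day 0 and 1 lay among them, and 117.9, 121.9 and 125 CPM on day 3, below every library of day 0. The rise on day 1 was 1.65-fold (log2 fold change 0.72, SE 0.08, edgeR adjusted p = 6.73e-07) and the drop to day 2 was 0.91 on the log2 scale (-0.91, SE 0.08, edgeR adjusted p = 4.44e-08). Zfp281 on day 3 was lower than on day 0 (-0.41, SE 0.08, edgeR adjusted p = 0.000314). The comparison of day 2 with day 0 was near the threshold (-0.19, 95% interval -0.37 to -0.01, edgeR adjusted p = 0.0544), and it passed without library 1 of day 0 (adjusted p = 0.0176), library 2 of day 0 (0.0263), library 2 of day 2 (0.0155), library 1 of day 3 (0.041) or library 2 of day 3 (0.0456). The step from day 2 to day 3 (-0.22, edgeR adjusted p = 0.0591) likewise passed without library 3 of day 0 (adjusted p = 0.0163) or library 3 of day 2 (0.00961). Of 9 alternatives that kept every library, 2 called Zfp281 on day 2 against day 0 and 2 called this step.

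Utf1 also peaked on day 1 and was the only member higher than day 0 on all 3 later days. Its libraries read 217.9, 217.7 and 250.9 CPM on day 0 and 518.2, 523.5 and 548.5 CPM on day 1, so that the lowest of day 1 was above the highest of day 0. On day 2 they read 368.3, 327.1 and 337.8 CPM and on day 3 they read 268.7, 310.5 and 242.1 CPM. Day 3 lay below every library of day 2 and overlapped with day 0. Utf1 rose 2.32-fold by day 1 (log2 fold change 1.21, SE 0.08, edgeR adjusted p = 3.85e-10) and was still 1.51-fold higher on day 2 (0.59, SE 0.08, edgeR adjusted p = 3.37e-06). On day 3 the log2 fold change against day 0 was 0.26 (SE 0.08, edgeR adjusted p = 0.00757), and without library 2 of day 3 it was 0.16 and not called (adjusted p = 0.0758). The falls from day 1 to day 2 (-0.62, edgeR adjusted p = 2.33e-06) and from day 2 to day 3 (-0.33, edgeR adjusted p = 0.00441) both passed.

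**Figure D1:**
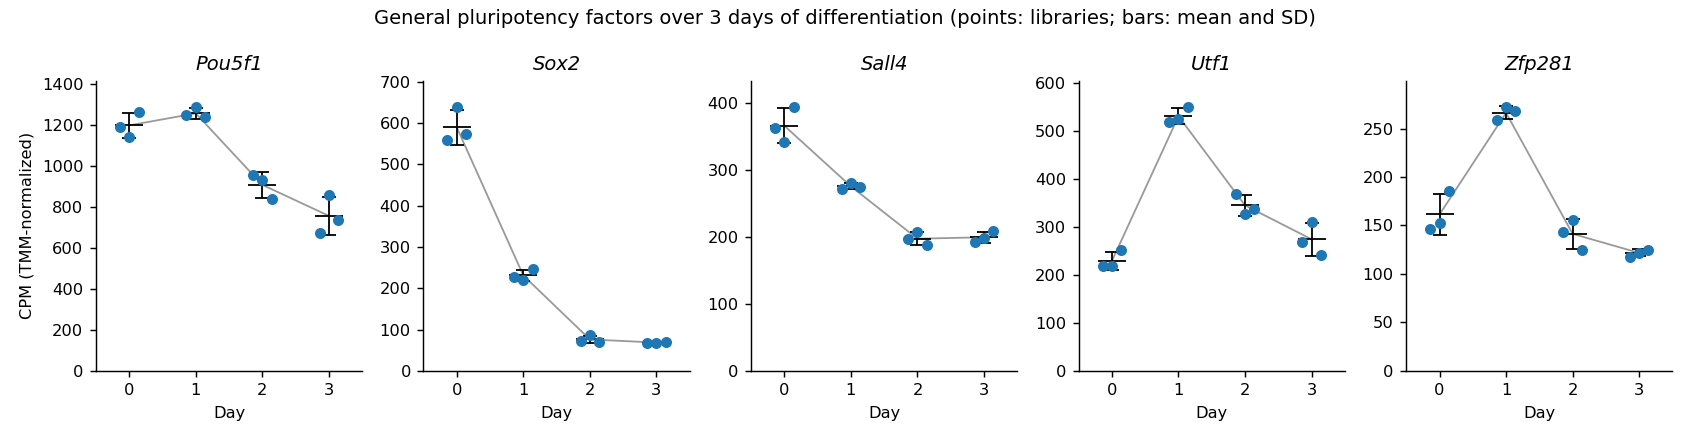
TMM-normalized counts (CPM) of each gene by day of differentiation, with 1 point per library, the mean and SD of 3 libraries as bars, a line through the means, and axes from 0. Sox2 and Sall4 fall from day 0, Pou5f1 falls after day 1, and Utf1 and Zfp281 are highest on day 1, at means of 530.1 and 266.2 CPM.

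All 5 members differed among the 4 days (edgeR test over days 1, 2 and 3 together, adjusted p between 1.43e-17 and 5.77e-08), as did 88.3% of all 14382 genes tested, so this count is near the background. On day 1 against day 0, 2 members were called higher and 2 lower, where 30.1% and 30.8% of all genes were. On day 2 against day 0, 1 was higher and 3 were lower, beside 34.2% and 32.4% of all genes, and on day 3 against day 0, 1 was higher and 4 were lower, beside 35.0% and 35.9%. Between days 1 and 2 all 5 members were lower, where 29.6% of all genes were lower and 32.5% higher. Between days 2 and 3, 2 members were lower and 0 higher, beside 15.6% lower and 15.9% higher. The comparisons of days 1, 2 and 3 with day 0 share the same 3 control libraries. The median absolute log2 fold change on day 3 against day 0 was 0.51 over all genes, so that Pou5f1, Sall4 and Sox2 were above it and Utf1 and Zfp281 below.

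**Figure D2:**
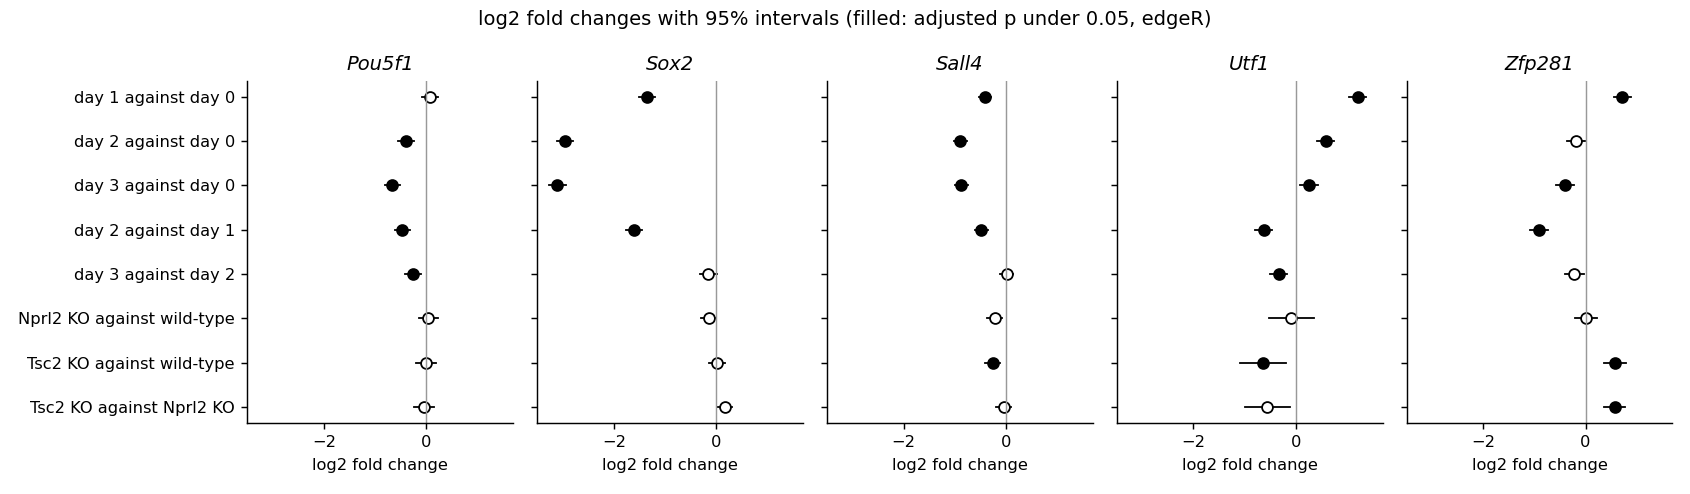
log2 fold change of each gene in 8 comparisons, with 95% intervals as lines, filled circles for an edgeR adjusted p under 0.05, and the same linear axis in every panel. Sox2 on day 3 against day 0 (-3.11) is the farthest from 0, and for Nprl2 KO against wild-type all 5 circles are open.

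While Sox2 fell, 6 of 9 other listed SOX genes were higher and 3 lower on day 3 against day 0. Of all genes, 35.0% were higher and 35.9% lower. The summed level of Sox2 and these 9 fell less than that of Sox2 alone, and SOX genes outside the list were not summed. Sox2 made up 80.1% ± 1.38 (SD, n = 3) of the summed TPM of 10 SOX genes on day 0, 45.8% ± 1.52 on day 1, 19.5% ± 1.90 on day 2 and 17.1% ± 0.01 on day 3. The sum itself went from 569.2 ± 39.6 to 328 ± 14.1 TPM. Sox3, of the same SoxB1 group as Sox2, went from 4.22 ± 0.65 to 75.6 ± 2.78 TPM between days 0 and 3 (log2 fold change 4.06, edgeR adjusted p = 2.87e-17), and on day 3 its mean was above that of Sox2. Sox4 was at 56.8 ± 3.49 TPM and Sox12 at 77.5 ± 1.01 TPM on that day, whereas Sox21 fell the furthest of the relatives (log2 fold change -3.90, edgeR adjusted p = 4.28e-11) and Sox15 (-3.26, edgeR adjusted p = 3.18e-12) and Sox17 (-1.70, edgeR adjusted p = 0.000122) fell too. Of the POU genes, Pou3f1 (Oct6) rose from 2.71 ± 0.25 TPM to 213.3 ± 10.7 TPM on day 1 and 146.1 ± 13.7 TPM on day 3 (log2 fold change on day 3 5.66, edgeR adjusted p = 1.49e-17), yet Pou5f1 still held 87.6% ± 0.36 of the summed TPM of 6 POU genes on day 3, against 98.5% ± 0.12 on day 0. Sall2 rose from 4.46 ± 1.28 to 73.5 ± 8.58 TPM by day 3 as Sall3 fell, and Sall4 went from 52.3% ± 1.13 to 36.3% ± 1.36 of the 4 SALL genes. Zfp148, the paralog of Zfp281, was lower on day 1 (log2 fold change -0.39, edgeR adjusted p = 0.00018), when Zfp281 was higher, and the share of Zfp281 in the pair was 90.9% ± 0.54 then. Of 17 relatives tested, 9 rose and 5 fell on day 1, 7 rose and 5 fell on day 2, and 9 rose and 6 fell on day 3, all against day 0. Between days 1 and 2, 4 rose and 6 fell, and between days 2 and 3, 4 rose and 3 fell. Shares of all genes higher and lower were 30.1% and 30.8% on day 1, 34.2% and 32.4% on day 2, and 35.0% and 35.9% on day 3. They were 32.5% and 29.6% between days 1 and 2, and 15.9% and 15.6% between days 2 and 3.

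**Figure D3:**
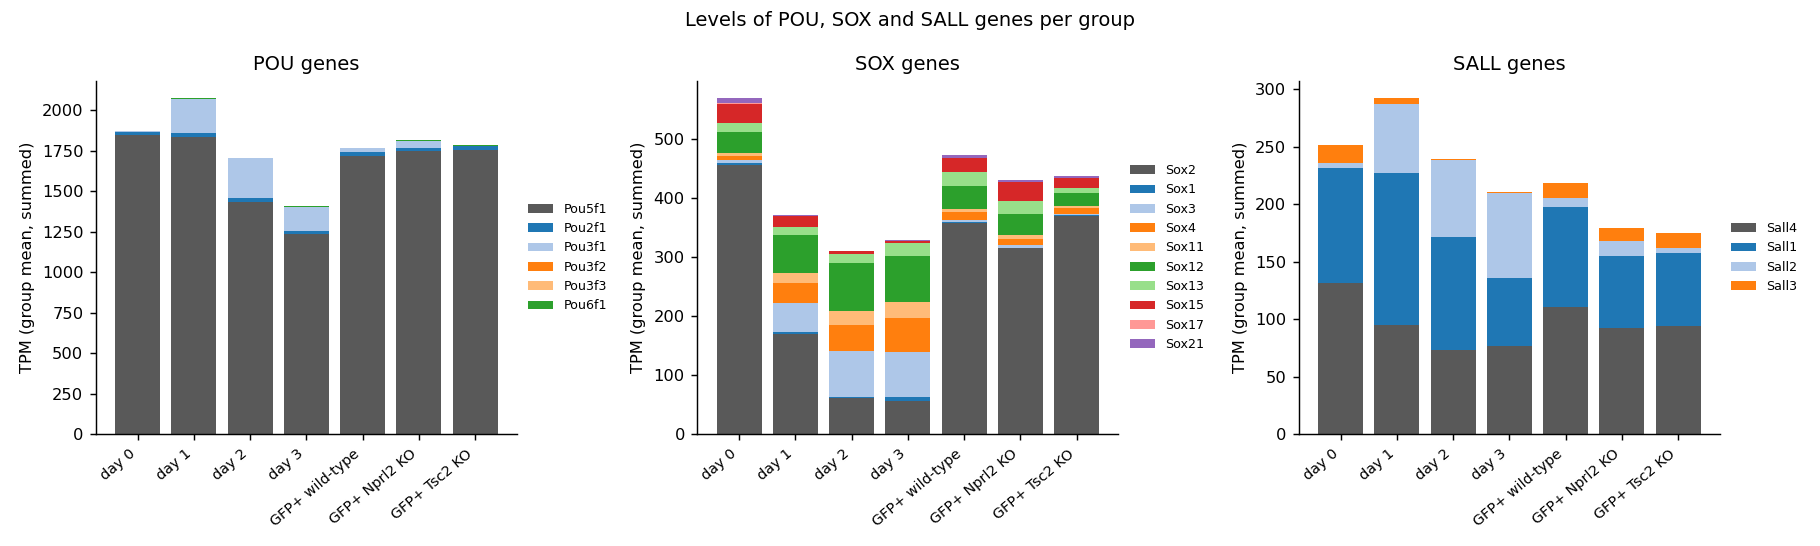
Mean TPM of the listed POU, SOX and SALL genes stacked per group, from 0 (3 libraries a day, 2 a genotype). Pou5f1, Sox2 and Sall4 are in dark grey at the base. The dark share of SOX genes shrinks from 80.1% on day 0 to 17.1% on day 3, while that of POU genes stays at 84.1% or more in every group.

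The files give the makeup of each member by transcript. Sox2 and Utf1 have 1 transcript each in these files. Of Pou5f1, the transcript NM_013633.3 (1353 bases) held between 88.4% and 96.1% of the gene's TPM in the time course and between 99.3% and 99.9% in GFP+ cells, the rest being NM_001252452.1 (991 bases), which begins downstream. Day 0 and GFP+ wild-type cells are both undifferentiated, and the short form was 7.11% to 10.2% in the one and 0.148% to 0.296% in the other. The length a transcript loses to the fragment size was 179 bases in all time-course libraries and between 169.6 and 227.9 in GFP+ libraries, so the 2 sets were not quantified alike, and set and sample type cannot be told apart. Sall4 was between 94.2% and 100% NM_175303.4 (5104 bases) in every library. Zfp281 was divided between NM_177643.4 and NM_001160251.1, which differ by 4 bases in length, and the share of the first lay between 45.1% and 82.1% within day 2 alone. Estimates of this kind carry no error in these files, and only sums per gene were tested.

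General pluripotency genes that the study displayed beside the members include Lin28a, an RNA-binding repressor of let-7, and the zinc finger factor Zic2. Lin28a and Zic2 rose on all 3 days against day 0, with log2 fold changes on day 3 of 1.09 and 1.61 (edgeR adjusted p = 7.31e-10 and 3.26e-12). Between days 1 and 2 Zic2 rose further (0.74, edgeR adjusted p = 3.06e-07) and Lin28a was not called, and between days 2 and 3 neither was called. The study's 17 naive genes contrasted with the members in size: 16, 17 and 17 of them fell on days 1, 2 and 3 against day 0 and none rose, with a median log2 fold change of -6.01 on day 3 against -0.66 over the 5 members and -0.01 over all genes. Prdm14 fell the furthest (-10.47, edgeR adjusted p = 1.27e-16). Its mean over the time course was only 0.19 log2 CPM, so the size of this fall rests on low counts. Between days 1 and 2, 14 naive genes fell and 1 rose, and between days 2 and 3, 8 fell and 1, Nanog, rose (1.75). Of the 10 formative genes, 8, 9 and 9 rose on days 1, 2 and 3 against day 0, led on day 3 by Fgf5 (7.44, edgeR adjusted p = 4.35e-16). On day 1 a formative gene fell, 2 rose and 4 fell between days 1 and 2, and 1 rose and 3 fell between days 2 and 3. Of all genes, 30.1%, 34.2% and 35.0% rose on days 1, 2 and 3 against day 0, and 30.8%, 32.4% and 35.9% fell. The shares that rose and fell were 32.5% and 29.6% between days 1 and 2, and 15.9% and 15.6% between days 2 and 3.

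Genes tied to the members by function moved in both directions, but 10 listed genes with an enhancer bound by Oct4 and Sox2 were mostly lower by day 3. Fgf4, Nanog and Zfp42 of these are also naive genes of the study, and Lefty1 is a formative one. Utf1, a member and also a known target of Oct4 and Sox2, was higher on all 3 days and is not in this list. Of the 10 genes, 2 rose and 5 fell on day 1, 1 rose and 6 fell on day 2, and 1 rose and 9 fell on day 3 against day 0. Of all genes tested, 30.1% rose and 30.8% fell on day 1, 34.2% and 32.4% on day 2, and 35.0% and 35.9% on day 3. From day 1 to day 2, 32.5% of all genes rose and 29.6% fell, and from day 2 to day 3, 15.9% and 15.6%. Several counts of the lists below are near these shares. Of the 10 genes on day 3, Zfp42 (Rex1) fell the furthest (log2 fold change -6.01, edgeR adjusted p = 1.38e-17) and Lefty1, a Nodal antagonist, rose (2.17, edgeR adjusted p = 0.00283). Between days 1 and 2, 1 rose and 7 fell, and between days 2 and 3, 1 rose and 6 fell. Among 11 NuRD genes, partners of Sall4 and Zfp281, 6 rose and 1 fell on day 1, 3 rose and 2 fell on day 2, and 2 rose and 5 fell on day 3, where the highest was Mta1 (0.94, edgeR adjusted p = 5.47e-11) and the lowest Gatad2b (-0.36, edgeR adjusted p = 0.00447). From day 1 to day 2, 9 of them fell and 1 rose, and 3 fell and 1 rose between days 2 and 3. Of 26 other partner and chromatin factors, 13 rose and 7 fell on day 1, 7 rose and 9 fell on day 2, and 7 rose and 12 fell on day 3, from Med14, a Mediator subunit (1.49, edgeR adjusted p = 1.99e-12), to Tet2, an enzyme of DNA demethylation (-4.37, edgeR adjusted p = 4.13e-10). From day 1 to day 2, 3 rose and 15 fell, and from day 2 to day 3, 3 rose and 5 fell.

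For each member the genes with the most similar course over the 12 time-course libraries were found by Pearson's r of log2 CPM among 5690 genes whose day means spanned at least 0.5 and whose mean was at least 3. These values are descriptions of libraries that share 4 days. Nearest to Pou5f1 were Etv5 (r = 0.988), Rps4l (0.988) and Ccnb1ip1 (0.987), and nearest to Sox2 were Esrrb (0.995), Ncoa1 (0.995) and Cep55 (0.994). A high r does not mean an equal size, since Esrrb went from 921.4 to 2.92 CPM between days 0 and 3 while Sox2 went from 589.8 to 68.4 CPM. Zfp553 (0.996), Eif4e2 (0.993) and Xrn2 (0.993) were nearest to Sall4. The courses most like that of Utf1 were those of Unkl (0.981), Ubald1 (0.978) and Gtf3c6 (0.976), and those most like that of Zfp281 were Wapl (0.990), Resf1 (0.988) and Dctd (0.987). Among the members, the highest value was that of Sox2 with Sall4 (0.986) and the lowest that of Sall4 with Utf1 (-0.177).

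The levels of GFP+ cells are set beside those of day 0 without a test, since they are separate sets of libraries whose cultures may have differed. Pou5f1 was at 1716 ± 95.5 TPM (SD, n = 2) in wild-type GFP+ cells beside 1845 ± 74.4 TPM on day 0, Sox2 at 357.4 ± 0.65 beside 456.1 ± 33.2 TPM, Utf1 at 497.1 ± 82.4 beside 410.7 ± 31.5 TPM, Sall4 at 110.7 ± 2.98 beside 131.6 ± 8.39 TPM and Zfp281 at 74.1 ± 4.79 beside 55.7 ± 7.01 TPM. The order in both wild-type and both Nprl2 KO libraries was Pou5f1, Utf1, Sox2, Sall4 and Zfp281. In both Tsc2 KO libraries Utf1 was below Sox2, and Sall4 below Zfp281.

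In Nprl2 KO cells none of the 5 members was called by the edgeR test, where 2.78% of all 13725 genes were called higher and 3.66% lower. At an unadjusted p under 0.05, 1 member, Sall4, was below it, DESeq2 called none, and limma on TPM called none. Sall4 read 307.6 and 300.4 CPM in wild-type and 273.6 and 248.6 CPM in Nprl2 KO libraries, so that both KO libraries were lower (log2 fold change -0.22, 95% interval -0.37 to -0.07, edgeR adjusted p = 0.0758). Without a filter on low counts this value passed (adjusted p = 0.0362). Sox2 read 456.2 and 465.8 CPM against 424.8 and 406.4 CPM, again with both KO libraries lower (-0.15, 95% interval -0.30 to 0.00, edgeR adjusted p = 0.243). Pou5f1 (0.04, 95% interval -0.15 to 0.23), Utf1 (-0.08, 95% interval -0.53 to 0.36) and Zfp281 (0.01, 95% interval -0.20 to 0.22) had overlapping libraries, and the interval of Utf1 was the widest.

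In Tsc2 KO cells Zfp281 was higher and Utf1 and Sall4 were lower than in wild-type cells, while Pou5f1 and Sox2 were not called. These counts of 1 higher and 2 lower stand beside 14.9% of all genes called higher and 14.2% lower. Pou5f1 read 1178 and 1107 CPM in wild-type and 1208 and 1062 CPM in Tsc2 KO libraries (log2 fold change -0.01, 95% interval -0.20 to 0.18, edgeR adjusted p = 0.946). Sox2 read 496 and 434.8 CPM in Tsc2 KO libraries, on either side of the wild-type pair (0.01, 95% interval -0.14 to 0.17, edgeR adjusted p = 0.907). For both genes the interval ends short of the log2 fold change found on day 2 against day 0 (-0.40 and -2.96).

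Zfp281 read 221 and 205.6 CPM in wild-type libraries. It read 226 and 202.9 CPM after loss of Nprl2 and 349 and 288.6 CPM after loss of Tsc2. Both Tsc2 KO libraries were above the other 4, and the gene was 1.49-fold higher than in wild-type cells (log2 fold change 0.58, SE 0.09, edgeR adjusted p = 0.00123). Genes of chromosome 1, on which Zfp281 lies, were higher as a whole: the median log2 fold change of its 747 tested genes was 0.37, and 45.1% of them were called higher, while the medians of the 19 other chromosomes lay between -0.11 and 0.04. In windows of 50 Mb, chosen after that median had been seen, the median was 0.00 from 0 to 50 Mb, 0.21 from 50 to 100 Mb, 0.62 from 100 to 150 Mb, which holds Zfp281, and 0.53 beyond 150 Mb. The value of Zfp281 was thus no higher than the median of its own window, and 34.3% of the tested genes of chromosome 1 had a larger log2 fold change. In Nprl2 KO libraries the median of chromosome 1 was -0.01. The part of the chromosome 1 shift in the value of Zfp281 was not tested. Chromosome 12, which holds no member, had 18.9% of its tested genes called lower in Nprl2 KO cells and 27.5% in Tsc2 KO cells. Every other chromosome had at most 5.25% and 19.6%.

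Utf1 read 307.3 and 246.7 CPM in wild-type and 198.9 and 157.4 CPM in Tsc2 KO libraries. Both KO libraries were lower, and library 1 was above library 2 in each of the 3 genotypes (log2 fold change -0.64, SE 0.18, edgeR adjusted p = 0.0488). The call was lost without library 1 of wild-type cells (-0.48, adjusted p = 0.154) or library 2 of Tsc2 KO cells (-0.48, adjusted p = 0.12). Of 9 alternatives that kept every library, 5 called Utf1. Those that lost the call included upper-quartile normalization (adjusted p = 0.0536) and limma on log2(TPM + 1) (adjusted p = 0.0743). Sall4 read 260.1 and 246.9 CPM in Tsc2 KO libraries, both below the wild-type pair (-0.26, SE 0.07, edgeR adjusted p = 0.0118), and this call too was lost without wild-type library 1 (adjusted p = 0.0715) or Tsc2 KO library 2 (adjusted p = 0.113). The medians of chromosomes 7 and 2, on which Utf1 and Sall4 lie, were -0.02 and 0.01.

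**Figure D4:**
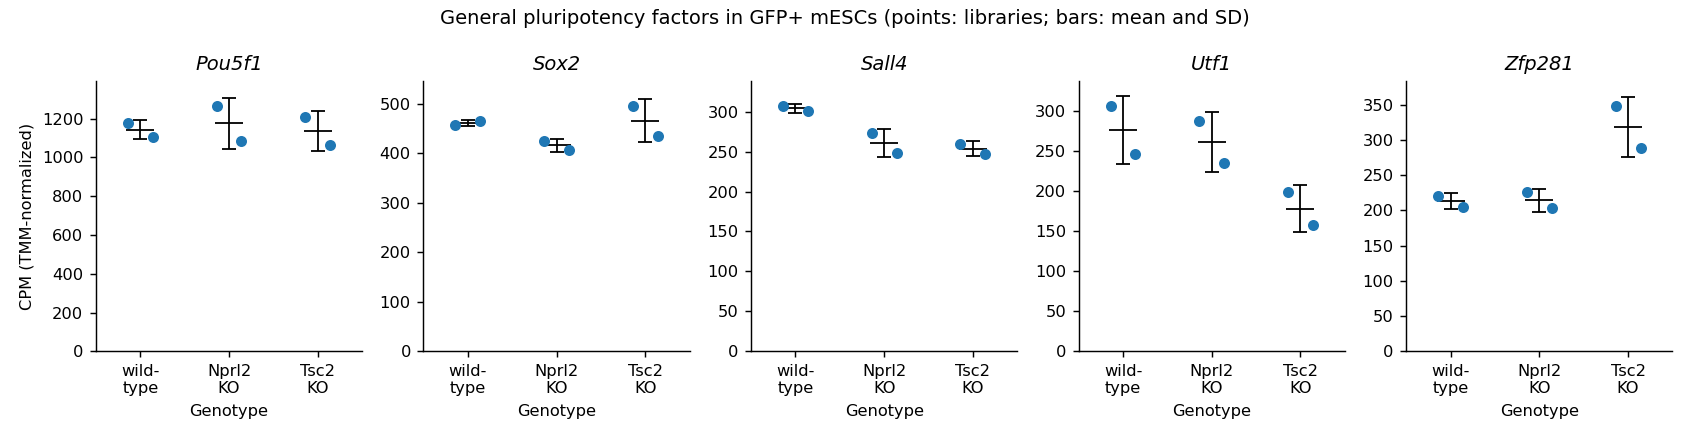
TMM-normalized counts (CPM) of each gene in GFP+ cells of 3 genotypes, with 1 point per library, the mean and SD of 2 libraries as bars, and axes from 0. Zfp281 stands apart in Tsc2 KO cells at 288.6 and 349 CPM, and Pou5f1 overlaps in all genotypes.

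**Figure D5:**
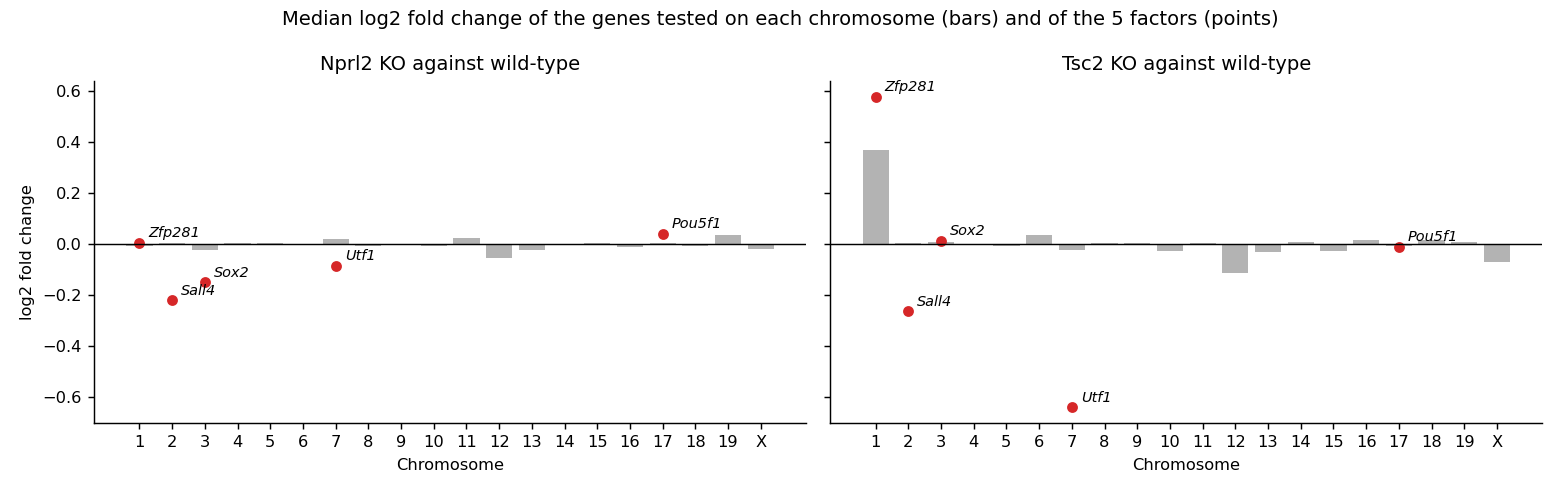
Median log2 fold change of the genes tested on each chromosome as bars, with the 5 factors as points at their own chromosome, for each KO against wild-type. Chromosome 1 stands at 0.37 in Tsc2 KO cells with Zfp281 at 0.58, and no bar in the Nprl2 KO panel is beyond -0.05 or 0.03. Chromosome 12 is the lowest bar in both panels, at -0.05 for Nprl2 KO and -0.11 for Tsc2 KO.

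Set directly against Nprl2 KO cells, Tsc2 KO cells had 1 member called higher, Zfp281 (log2 fold change 0.57, SE 0.09, edgeR adjusted p = 0.000967), and none lower, beside 17.5% and 16.6% of all genes. Chromosome 1 again had a median of 0.36 in this comparison. Utf1 was lower without passing (-0.56, SE 0.18, edgeR adjusted p = 0.065), and it passed without wild-type library 1 (adjusted p = 0.0435), wild-type library 2 (0.0398) or Tsc2 KO library 1 (0.0249), in the fit of 2 groups alone (0.0394) and without a filter on low counts (3.55e-12). Sox2 was at 0.16 (95% interval 0.01 to 0.32, edgeR adjusted p = 0.0938) and passed without Tsc2 KO library 2 (0.26, adjusted p = 0.03) and with limma on log2(TPM + 1) (0.23, adjusted p = 0.034). Pou5f1 (-0.05, 95% interval -0.24 to 0.14) and Sall4 (-0.04, 95% interval -0.19 to 0.10) were not called. The KO comparisons share their libraries, each group serving in 2 of them.

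The naive and formative lists follow the study's own grouping in its account of these GFP+ libraries, so they are no independent evidence of direction. They are given beside the members. Of the 17 naive genes, 8 were lower in Nprl2 KO cells and none higher, led by Tcl1 (log2 fold change -1.43, edgeR adjusted p = 0.000285), while 12 were higher in Tsc2 KO cells and none lower, led by Tfcp2l1 (2.09, edgeR adjusted p = 0.000803). The median over this list was -0.43 and 0.91, beside -0.08 and -0.01 over the 5 members and 0.00 over all genes in both. Of the 10 formative genes, 2 were higher in Nprl2 KO cells, Dnmt3b the highest of those called (0.45, edgeR adjusted p = 0.00441), and 8 were lower in Tsc2 KO cells, Pou3f1 the lowest (-3.24, edgeR adjusted p = 0.0179). Between the KOs, 16 naive genes were higher and 9 formative genes lower in Tsc2 KO cells. Of all genes, 2.78% were higher and 3.66% lower in Nprl2 KO cells, and 14.9% and 14.2% in Tsc2 KO cells. Between the KOs the shares were 17.5% and 16.6%. Lin28a was lower in both KOs (-0.38 and -1.16, edgeR adjusted p = 0.0105 and 1.27e-06), and Zic2 was lower in Tsc2 KO cells (-1.03, edgeR adjusted p = 0.00947). Both were also lower in Tsc2 KO than in Nprl2 KO cells (-0.79 and -1.24, edgeR adjusted p = 1.15e-05 and 0.00324).

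Of 16 family relatives tested in GFP+ cells, 1 was lower in Nprl2 KO cells, Pou2f1 (Oct1, -0.47, edgeR adjusted p = 0.00204), and in Tsc2 KO cells 9 were lower and 2 higher, from Pou3f1 to Pou6f1 (0.57, edgeR adjusted p = 0.0278). The second higher relative in Tsc2 KO cells was Zfp148, the paralog of Zfp281 (0.39, edgeR adjusted p = 0.00706). Sox2 held 75.7% ± 0.26 (SD, n = 2) of the TPM of the listed SOX genes in wild-type cells, 73.1% ± 0.76 without Nprl2 and 84.5% ± 1.43 without Tsc2. The level of Sox2 itself was 357.4 ± 0.65, 314.6 ± 10.6 and 369.9 ± 29.2 TPM. Sox3 was among the relatives lower in Tsc2 KO cells (-2.44, edgeR adjusted p = 0.000756), as were Sall1 (-0.48, edgeR adjusted p = 0.0328) and Sall2 (-1.02, edgeR adjusted p = 0.0212). Between the KOs, 1 relative was higher and 7 were lower in Tsc2 KO cells. Beside these counts, 2.78% of all genes were higher and 3.66% lower in Nprl2 KO cells, and 14.9% and 14.2% in Tsc2 KO cells. Between the KOs the shares were 17.5% and 16.6%.

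Genes bound at enhancers by Oct4 and Sox2 moved in both directions in the KOs. Fgf4, Nanog and Zfp42 of these 10 also stand in the naive list and Lefty1 in the formative list, as Pou3f1 and Sox3 stand in both the formative list and the relatives. In Nprl2 KO cells 1 was higher, Lefty1 (0.43, edgeR adjusted p = 0.0232), and 1 was lower, Zfp42 (-0.43, edgeR adjusted p = 0.00168), the gene whose reporter was used for the sort. In Tsc2 KO cells 3 were higher, led by Nanog (0.91, edgeR adjusted p = 8.51e-06), and 3 were lower, led by Lefty1 (-2.79, edgeR adjusted p = 5.00e-08), and between the KOs 2 were higher and 3 lower in Tsc2 KO cells. Of the 11 NuRD genes, 1 was lower in Nprl2 KO cells, Mta1 (-0.70, edgeR adjusted p = 0.00126), and in Tsc2 KO cells 5 were lower, again led by Mta1 (-1.53, edgeR adjusted p = 1.23e-06), and 1, Hdac2, was higher (0.28, edgeR adjusted p = 0.038). The direct comparison of the KOs gave the same counts, 5 lower and 1 higher in Tsc2 KO cells. Shares of all genes stand beside the counts of each list here, 2.78% higher and 3.66% lower in Nprl2 KO cells. They were 14.9% and 14.2% in Tsc2 KO cells, and 17.5% and 16.6% between the KOs. Of the 26 partner and chromatin factors, 2 were lower in Nprl2 KO cells, led by Yy1 (-0.74, edgeR adjusted p = 0.000175), and in Tsc2 KO cells 11 were lower, led by Mycn (-2.38, edgeR adjusted p = 9.39e-09), and 4 were higher, led by Stat3 (0.54, edgeR adjusted p = 0.00323). Between the KOs, 6 of these factors were higher and 8 lower in Tsc2 KO cells. The summed feeder markers were between 315.3 and 439.1 CPM in wild-type libraries, between 341.8 and 352.2 CPM without Nprl2 and between 119.4 and 400.8 CPM without Tsc2, and their part in these values was not tested. Of the tested genes of chromosome 12, 18.9% were called lower in Nprl2 KO cells and 27.5% in Tsc2 KO cells. The part of this in the values of the genes of all lists was not tested.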

How the data were processed

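RNA was sequenced from 12 time-course libraries and 6 libraries of sorted GFP+ cells. For each RefSeq transcript the authors deposited estimated counts and TPM from kallisto (version 0.42.1 and build mm10 per the labels), neither normalized between libraries, from a stranded mRNA kit read with paired ends for the GFP+ set. How the time-course libraries were made is not given in the sources used here. The authors also deposited their own DESeq2 comparisons of each KO (log2 fold change, p-value and adjusted p-value), which were not used, and a table of TPM per gene, which equals the sum of transcripts for all 5 members.

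Estimated counts were summed per gene through RefSeq (33713 of 34079 transcripts) and GENCODE M21 (192), rounded, and 174 transcripts without a gene (1.65% to 3.57% of counts) were left out. edgeR 4.0.16 in R 4.3.3 was run with TMM, its low-count filter, robust quasi-likelihood tests and Benjamini-Hochberg adjustment at 0.05, in 1 fit of the time course and 1 of the GFP+ libraries. The SE is the absolute log2 fold change over the square root of F. CPM use TMM library sizes. The fits were tested on simulated data. A count of 0 allows up to 3 counts, 0.196 to 0.348 CPM, and such floors cover counting error only. Chi-square values per gene between libraries of the same group lay between 1.77 and 8.54, so no library was a copy of another of its group. Libraries of different groups were not compared in this way.

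Genes named besides the 5 are the 3 nearest in course to each and, from each list, the called genes of largest and smallest log2 fold change on day 3 and in each KO against wild-type. Other named genes (Sox3, Sox4, Sox12, Sox15, Sox17, Sall1, Sall2, Sall3, Zfp148, Nanog on day 3) were chosen after their values were seen. One listed gene is not reported here. The members and lists were chosen with earlier results of these data known. Alternatives were DESeq2 1.42.0, upper-quartile normalization, no filter, at least 10 counts in every library, limma 3.58.1 on log2(TPM + 1) and log2(TPM + 0.1), the deposited gene symbols, a replicate block, fits of 2 groups alone, and leaving out each library.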

Additional observations from a re-analysis of the deposited data

How the results depend on the processing

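In the comparisons of day 1, 2 or 3 with day 0 and of day 2 with day 1, and in the test over all days, every alternative kept the count of called members within 1.5 times. From day 2 to day 3, 2 were called, with Zfp281 also called in 2 of 9 alternatives that kept every library, and between 1 and 3 with a library left out. In Nprl2 KO cells 0 were called, but Sall4 was called (1 member) when low counts were kept, and likewise (1) with the replicate block. In Tsc2 KO against wild-type cells 3 were called, and between 1 and 3 with a library left out. Between the KOs 1 was called, 2 without a filter, with either limma setting on TPM, with the deposited gene symbols and in the fit of 2 groups alone, 3 with the replicate block, and between 1 and 2 with a library left out. Log2 CPM of same-numbered libraries were correlated between groups after each gene's group mean was subtracted. In the time course the values lay between -0.11 and 0.13, over 0.1 in 2 of 18 pairs. In GFP+ cells the values were 0.08, 0.13 and 0.16 for the 3 pairs of genotypes. With 2 libraries a genotype, numbers 1 and 2 give the same value, so these are 3 values, which cannot decide on pairing. The labels name no shared batch, and the numbers were not taken as pairs. With the replicate block Utf1 was at -0.64 in Tsc2 KO against wild-type cells (edgeR adjusted p = 6.46e-08) and at -0.56 between the KOs (edgeR adjusted p = 2.28e-07). The deposited gene symbols were run on TPM, a form chosen after seeing the data, since that table holds no transcripts.

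Reversals were limited to values that were not called. With limma on TPM (both pseudocounts and the deposited symbols) the log2 fold change of Pou5f1 was -0.010 on day 1 against day 0, 0.032 in Tsc2 KO against wild-type cells and 0.0096 between the KOs, that of Sall4 between the KOs was 0.030, and that of Zfp281 in Nprl2 KO cells was between -0.040 and -0.039, beside -0.00085 with DESeq2. With a library left out, ranges spanned 0 for Sall4 from day 2 to day 3 (-0.015 to 0.052), in Nprl2 KO cells for Pou5f1 (-0.089 to 0.15), Utf1 (-0.25 to 0.076) and Zfp281 (-0.085 to 0.083), in Tsc2 KO cells for Pou5f1 (-0.10 to 0.085) and Sox2 (-0.082 to 0.11), and between the KOs for Pou5f1 (-0.16 to 0.069) and Sall4 (-0.11 to 0.030). The cause was not tested. With 1 library left in a group, that library is assumed to vary like the others.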
